A study of Rattus norvegicus with 241 samples.

Results

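The genes described here are 10 regulators of the G1 phase of the cell cycle: the CIP/KIP inhibitors CDKN1A (p21), CDKN1B (p27) and CDKN1C (p57), the INK4 inhibitors CDKN2A, CDKN2B and CDKN2C, the D-type cyclins CCND1 and CCND2, the transcription factor MYC and the retinoblastoma protein gene RB1. They were taken by name and not by their values, with symbols matched ignoring case. All 10 were found among the 15824 genes tested in basal and luminal cells of young rats, and 32 further genes of the G1/S pathway were followed as a list.

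A cell passes from G1 into S phase when cyclin D with CDK4 or CDK6, and then cyclin E with CDK2, phosphorylate the RB1 protein, which releases E2F factors. INK4 proteins bind CDK4 and CDK6, CIP/KIP proteins bind the cyclin-CDK complexes, and MYC raises transcription of G1 genes. In cultured epithelial cells, TGFβ arrests the cycle in G1 through SMAD factors that raise CDKN2B and CDKN1A and lower MYC, so several members are textbook targets of the pathway that was inhibited. CDKN1A is also the best known target of p53, and CDKN2A encodes p16INK4A and ARF, which the deposited values do not separate.

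The data came from female rats of the ACI (inbred) and SD (outbred) strains given LY2157299, an inhibitor of the TGFBR1 kinase (TGFBRi), or its vehicle by oral gavage, with 75 mg/kg 2 times a day for 10 days, or for 21 days in the estradiol (E2) experiment. The series holds 241 samples, of which 202 are bulk RNA-seq libraries of sorted cells and 39 are single-cell tables. Basal cells were sorted as CD24+CD29high and luminal cells as CD24+CD29low, both CD31- and CD45-, and leukocytes as CD45+.
Young virgin ACI rats, treated from about 35 days of age, were taken at day 0, 7 or 14 after the last dose, with 3 rats per arm and day. Young virgin SD rats, treated from about 24 days of age, were taken at day 0, with 4 rats per arm. Adult virgin and parous ACI rats of 18 to 24 weeks were taken at day 0, with 4 rats per arm except for CD45+ cells of 3 TGFBRi-treated virgin and 2 vehicle-treated parous rats. SD rats treated from 21 days of age then received 50 mg/kg of the carcinogen N-nitroso N-methylurea (NMU), and 3 rats per group were taken at day 87 as tumor-bearing vehicle, tumor-bearing TGFBRi or tumor-free TGFBRi, plus EPCAM+ and CD45+ cells of 3 tumors per arm. In the E2 experiment, ACI rats treated from 38 days of age received at 60 days an implant with 37 mg of estradiol or with air, and were taken at the end of the tumor experiment, on a day that the labels call variable. Without E2 there were 4 vehicle and 3 TGFBRi rats, and with E2 there were 4 vehicle rats and, under TGFBRi, 4 without and 2 with tumors. The vehicle rats with E2 all bore tumors, so E2 and tumor state cannot be told apart there. The single-cell tables hold basal and luminal sorts of young ACI rats (3 per arm) and young SD rats (6 TGFBRi, 3 vehicle), and unsorted whole glands of young SD rats (6 TGFBRi, 3 vehicle), all at day 0.

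The promoters of the 2 INK4 genes called in single cells, CDKN2B lower in whole glands and CDKN2C higher in the sorts, are shown with the letters of the SMAD half-site in capitals. Each run is the 250 bases upstream of the gene's start in RefSeq's GRCr8 annotation, 5′ to 3′ on the gene's strand, and capitals mark CAGAC or its reverse complement GTCTG.
CDKN2B promoter, chr5:109134856-109135105, minus strand: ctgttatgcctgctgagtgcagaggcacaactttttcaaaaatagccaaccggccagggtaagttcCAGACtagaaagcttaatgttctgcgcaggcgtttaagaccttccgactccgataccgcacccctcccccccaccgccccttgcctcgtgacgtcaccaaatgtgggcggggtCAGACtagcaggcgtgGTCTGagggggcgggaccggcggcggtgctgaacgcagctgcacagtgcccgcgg
CDKN2C promoter, chr5:129644892-129645141, minus strand: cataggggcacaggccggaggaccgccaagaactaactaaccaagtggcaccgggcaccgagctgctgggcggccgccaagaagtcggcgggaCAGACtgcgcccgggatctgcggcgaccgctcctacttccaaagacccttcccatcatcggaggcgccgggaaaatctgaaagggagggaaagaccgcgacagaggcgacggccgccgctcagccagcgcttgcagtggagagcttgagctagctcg
The CDKN2B promoter held 3 such matches, whose first bases lie 184, 71 and 55 bases upstream of the start, and the CDKN2C promoter held 1, at 157 bases. Of the 33469 rat promoters of this length in the table, 42.9% held CAGAC on either strand. The Sp1 site GGGCGG was found 3 times in the CDKN2B promoter, 6 times in that of RB1 and 1 time each in those of CDKN2C, CDKN1B and CDKN2A. CDKN1A held none, and 30.5% of all promoters held at least 1 match. The E-box CACGTG, found in 5.59% of all promoters, was in none of the 6 members in the table. CDKN1B held 1 CAGAC match at 152 bases, while CDKN1A, CDKN2A and RB1 held none in this window. CDKN1C, CCND1, CCND2 and MYC had no entry. A match is a description of letters and not a bound site.

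Bulk libraries held 4.19 to 52.3 M reads on genes (median 20.1 M, M for 1000000), and single-cell tables held 563 to 16424 cells with 4.52 to 92.7 M UMIs. Levels in bulk are given as normalized counts, the authors' read counts divided by a size factor per sample, and levels in single cells as CPM, the UMIs of a gene per 1000000 UMIs, both summed over the cells of a rat. Several libraries stood apart. In luminal cells of SD vehicle rats, the sum of 10 basal markers was 78.2k counts (k for 1000) in rat C6N against a lowest value of 5.27k. In basal cells of adult virgin vehicle rats, 1 rat had 26.5k counts of macrophage markers where the lowest had 0.163k. Single-cell libraries shared at most 0.228% of their cell barcodes among ACI sorts, 0.516% among SD sorts and 2.51% among whole glands. In bulk, fewer cells of a type and less RNA per cell cannot be told apart.

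Members were first compared between the lineages in vehicle-treated young rats, whose basal and luminal samples the authors scaled together. CCND2 and CDKN1C were higher in basal cells of both strains. Of members higher in luminal cells, RB1 was called in ACI rats and CDKN1A in SD rats. In ACI rats, 7 of 10 members passed the test (limma, adjusted p of 0.05 or less over all genes tested), 6 higher in basal cells and 1 higher in luminal cells, beside 34.1% of all genes. In SD rats, 3 of 10 did, beside 50.1% of all genes. With the rat as a block, 7 were called in ACI rats and 4 in SD rats, where CCND1 (-0.71, adjusted p = 0.0212) was added. In bulk, the shares of all genes are those of limma without a block. Member counts by other tools or settings stand without a share of their own.

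CCND2, a D-type cyclin, had a lowest, median and highest normalized count of 1092, 1612 and 3080 in the 9 ACI basal samples and of 9.067, 24.87 and 55.53 in the 9 luminal samples. The ranges were far apart, with a log2 difference of 5.99 (SE 0.38, adjusted p = 2.14e-13). In SD rats the 4 basal samples lay between 1534 and 1626 and the luminal samples at 11.9, 23.6, 29.1 and 118, a log2 difference of 5.60 (SE 0.77, adjusted p = 1.4e-05). The luminal value of 118 belongs to rat C6N.
CDKN1C, a CIP/KIP inhibitor of imprinted expression, had 594.8, 1991 and 3029 in ACI basal samples and 143.4, 175.6 and 363.3 in luminal samples. Again no basal sample fell within the luminal range (log2 difference 3.02, SE 0.22, adjusted p = 3.8e-12). In SD rats it had 1262 to 2055 in basal samples and 64.7, 78.6, 93 and 403 in luminal samples (log2 difference 3.77, SE 0.42, adjusted p = 1.47e-06), with the highest luminal value again in C6N. Leaving out any 1 rat or changing the scaling left the SD differences between 3.336 and 4.241 for CDKN1C and between 5.097 and 6.212 for CCND2.

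RB1 was higher in luminal cells of ACI rats, at 393.5 to 4133 normalized counts against 266.2 to 1297 in basal cells, with overlap (log2 difference -1.66, SE 0.40, adjusted p = 0.00134). In SD rats its log2 difference of 0.25 was not called. CDKN1A was also called higher in luminal cells, but in the other strain. Its 4 SD luminal samples lay at 3705, 4088, 5439 and 5747 and the basal samples at 1200, 1468, 1697 and 1705 (log2 difference -1.63, SE 0.25, adjusted p = 3.74e-05), without overlap, whereas its ACI difference of 0.30 was not called. Whether the lineage differences differ between the strains was not tested, since the 2 strains were scaled separately.
MYC was higher in ACI basal cells by 0.77 on the log2 scale (SE 0.20, adjusted p = 0.00336), CDKN2C by 0.82 (SE 0.23, adjusted p = 0.00642) and CDKN1B by 0.94 (SE 0.29, adjusted p = 0.0133), each with overlapping ranges. The CDKN1B call was lost without 1 rat of day 14 (0.79). CDKN2A was near the floor, with 0 to 12.68 counts in basal samples and 0 to 3.787 in luminal samples, and its call (1.71, SE 0.66, adjusted p = 0.0462) was lost in 11 of 16 alternatives. CDKN2B and CCND1 were not called in either strain without the block. CCND1 in SD rats did not overlap, at 1792 to 2510 in the basal sort and 2847 to 4654 in the luminal sort (-0.71, SE 0.32, adjusted p = 0.0743).
The sum of 10 basal markers lay between 178k and 667k in ACI basal samples and between 1.28k and 5.36k in luminal samples. The sum of 5 luminal markers lay between 45.4k and 113k in ACI basal and between 151k and 388k in luminal samples, so that basal samples also held luminal transcripts. In SD rats basal markers summed to 172k to 224k in basal and 5.27k to 78.2k in luminal samples, and luminal markers to 41.6k to 51.8k and 242k to 381k. A difference between the treatment effects in basal and luminal cells of day 0 was called for none of the 10 members by limma, edgeR or DESeq2, with 0 at an unadjusted p under 0.05, and by limma for 0.152% of all genes.

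**Figure D1:**
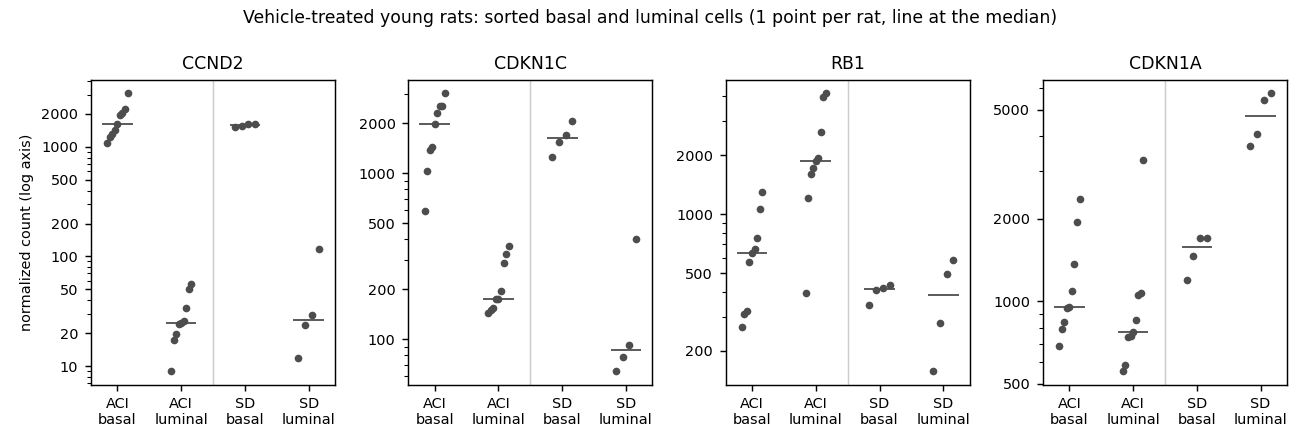
Normalized counts (log axis) of CCND2, CDKN1C, RB1 and CDKN1A in sorted basal and luminal cells of vehicle-treated young rats, 1 point per rat and fraction (ACI n = 9, SD n = 4) with a line at the median. CCND2 and CDKN1C do not overlap between the lineages in either strain, and CDKN1A does not overlap in SD rats. The 2 strains were scaled separately.

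The single-cell sorts gave the same genes beside each other without a test. The authors had removed cells of a sort that clustered with the other sort, which bears on differences between the sorts. CCND2 reached 44.5 to 76 CPM in ACI basal sorts and 12.8 to 57.8 in SD basal sorts over both arms, and only 4, 5, 14 and 0 UMIs in all in the luminal sorts of the ACI TGFBRi, ACI vehicle, SD TGFBRi and SD vehicle rats. CDKN1C had 82.1 to 104.8 in basal and 5.93 to 10.6 in luminal sorts of ACI vehicle rats. RB1 had 91.5 to 161 CPM in luminal and 45 to 54.6 in basal sorts of ACI vehicle rats, and 140 to 160 against 29.9 to 48.4 in SD vehicle rats. In these tables RB1 thus stood higher in the luminal sort of both strains. CDKN1A, called higher in luminal cells of SD rats in bulk, overlapped between the sorts of SD vehicle rats. It had 155, 158 and 210 CPM in their basal sorts, and the lowest luminal sort had 161.

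Next, TGFBRi was compared with vehicle in the bulk fractions of young rats. No member was called by limma in any of the 12 comparisons of 2 strains, 3 fractions and up to 3 days, which are 120 tests of a member, of which 8 had an unadjusted p under 0.05. edgeR on the recovered reads called 0 and DESeq2 called 2. The share of all genes called was itself small outside day 0: 3.34% in ACI basal cells at day 0, 0.00639% at day 7 and 0% at day 14, 1.01%, 0% and 0% in luminal cells, and 2.85%, 0% and 0% in CD45+ cells. In SD rats it was 0% in basal, 0% in luminal and 0% in CD45+ cells. At unadjusted p under 0.05, 494 genes passed in SD basal, 244 in SD luminal and 501 in SD CD45+ cells. In ACI basal cells of day 0, 7 and 14, 4023, 871 and 298 of 15643 genes did. In ACI luminal cells 3013, 1172 and 1268 of 15181 passed, and in ACI CD45+ cells 2642, 631 and 725 of 14761.

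MYC in ACI basal cells missed the threshold of limma at day 0, while DESeq2 (1.14, adjusted p = 0.0124) and a limma fit of only the groups compared called it. It had 14657, 15336 and 15919 normalized counts with vehicle and 26036, 34237 and 40548 with TGFBRi, without overlap (log2 difference 1.11, SE 0.35, adjusted p = 0.0783). At day 7 the values were 4932, 5421 and 7834 against 7530, 10886 and 14070, and at day 14 they were 5436, 8853 and 9490 against 5287, 10116 and 11224, so that the arms overlapped from day 7 on. In luminal cells of day 0, MYC had 7842, 8130 and 8362 with vehicle and 8605, 11057 and 11974 with TGFBRi, without overlap (0.37, SE 0.37, adjusted p = 0.664). In SD basal cells it had 6541, 8240, 8560 and 8973 against 7995, 11151, 13206 and 16525 (0.56, SE 0.22, adjusted p = 0.98). The median of all genes was shifted by 0.298 in ACI basal and 0.212 in ACI luminal cells at day 0, which lies within these differences.
Beside these values, the sum of basal markers in ACI basal cells of day 0 was 107.3k to 217k with TGFBRi and 264k to 329k with vehicle, and that of fibroblast markers 36.2k to 510k against 54.8k to 128k. Their part in the MYC values was not tested.

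CCND2 took opposite directions in 2 fractions of the same day, neither of them called by limma. DESeq2 called the difference in CD45+ cells (0.88, adjusted p = 0.0218), and a limma fit of only the groups compared called that in basal cells. In ACI basal cells of day 0 it had 1243, 1316 and 1612 with vehicle and 699, 721 and 791 with TGFBRi (-0.91, SE 0.52, adjusted p = 0.281). In CD45+ cells it had 1961, 2241 and 3303 with vehicle and 4354, 4355 and 5100 with TGFBRi (0.91, SE 0.26, adjusted p = 0.0668). Neither pair of arms overlapped. The part of the mix of leukocyte types in the CD45+ values was not tested. By day 14, CD45+ cells had 3256, 4077 and 4176 with vehicle and 2567, 2580 and 4194 with TGFBRi, and the difference of effect between day 0 and day 14 was 1.24 (SE 0.36, adjusted p = 0.129).
CDKN2B, the INK4 gene most directly under TGFβ control in textbook accounts, had 8.57, 26.1 and 40.4 in vehicle and 12.2, 117 and 198 in TGFBRi basal cells of day 0 (1.61, SE 0.82, adjusted p = 0.224), with overlap. CDKN1C in basal cells of day 7 had 595, 1376 and 2304 against 2555, 2768 and 2788 (1.13, SE 0.41, adjusted p = 0.733), beside fibroblast marker sums of 17.6k to 82.6k with vehicle and 37.5k to 385k with TGFBRi.
The difference of effect between days was called by limma for no member in 60 member tests, 4 of which had an unadjusted p under 0.05. edgeR called 0 and DESeq2 called 1, CCND2 in CD45+ cells between day 0 and day 14 (adjusted p = 0.0408). At unadjusted p under 0.05, 918 genes passed between day 0 and 7 and 1879 between day 0 and 14 in basal cells. In luminal cells 1118 and 1274 did, and in CD45+ cells 1555 and 2347. By limma 0% of all genes differed between day 0 and 7 and 0.00639% between day 0 and 14 in basal cells, 0% and 0.00659% in luminal cells, and 0.0135% and 0.19% in CD45+ cells.

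Of the pathway lists at day 0, 1 of 27 measured further G1/S genes was called in ACI basal cells, CDK4, the partner of D-type cyclins, lower by 2.02 on the log2 scale. Of 12 markers of cycling cells 3 were lower (TK1 by 5.08, BIRC5 by 3.33, CCNA2 by 1.98), with a median over the list of -1.095 where the median of all genes was 0.298. Of 8 TGFβ targets, PMEPA1, a feedback inhibitor of the pathway, was lower by 1.73, and of 11 p53 targets PHLDA3 was lower by 1.49. In luminal cells 5 of the cycling markers were lower (list median -2.096) while no further G1/S gene was called, and LTBP2 and PMEPA1 were lower by 3.62 and 1.45. In CD45+ cells BMI1, a repressor of the CDKN2A locus, was higher by 1.62.

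In adult rats, CDKN1A rose in basal cells of virgin rats. Its normalized counts were 477, 530, 613 and 1064 with vehicle and 1507, 2259, 3120 and 8369 with TGFBRi. Every treated rat lay above every vehicle rat, at a log2 difference of 2.27 (SE 0.46, adjusted p = 0.0075). It was the only one of the 10 members that limma called there, where 8.73% of all genes were. At an unadjusted p under 0.05, 5 of the 10 members and 3461 of 13442 genes passed. The median of all genes was shifted by -0.2475. The difference ran from 1.785 to 2.609 over the alternatives, and the call was lost in 1 of 15, a fit of the 2 groups alone.
In parous rats CDKN1A had 599, 628, 1166 and 1391 with vehicle and 731, 819, 1618 and 1765 with TGFBRi, with overlap (0.37, SE 0.46, adjusted p = 0.997), where 0.00744% of all genes were called. The difference between the effects in parous and virgin rats, -1.90 (SE 0.65, adjusted p = 0.164), was not called by limma, and 1.04% of all genes were. DESeq2 on the recovered reads called it (-2.12, adjusted p = 0.0387).

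**Figure D2:**
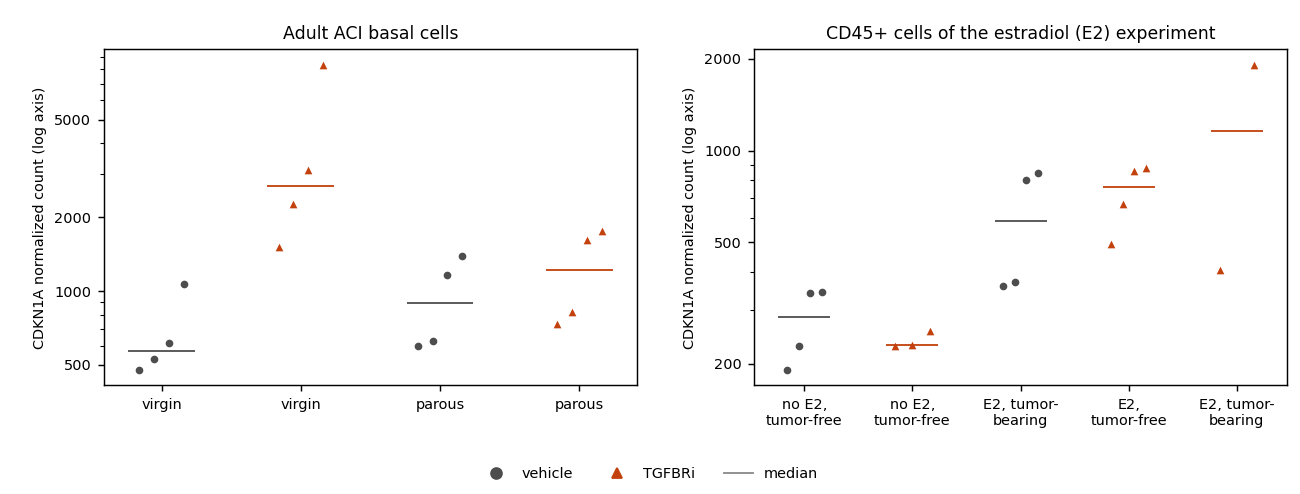
CDKN1A normalized counts (log axis), 1 point per rat (grey circles vehicle, orange triangles TGFBRi) with a line at the median. In adult basal cells, the 4 TGFBRi-treated virgin rats lie between 1507 and 8369, all above the virgin vehicle rats, and the parous arms overlap. In CD45+ cells of the E2 experiment, the rats without E2 lie at or below 343 and the rats with E2 at or above 360.

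Further members in virgin basal cells missed the threshold of limma. CDKN1C had 931, 934, 978 and 1373 with vehicle and 1222, 1662, 2564 and 3062 with TGFBRi (0.94, SE 0.29, adjusted p = 0.053). MYC had 21826, 24443, 26648 and 34817 against 28163, 50292, 62907 and 72046 (0.92, SE 0.32, adjusted p = 0.0825). CCND1 had 3789 to 6843 against 1709 to 3797 (-0.82, SE 0.36, adjusted p = 0.167), and RB1 780 to 1778 against 211 to 1207. CDKN2B was at 0 in 3 of the 4 TGFBRi rats and at 127 in the other, with 4.64 to 20.9 in vehicle rats. CDKN1A, CDKN1C and MYC thus lay on the higher side and CCND1 and RB1 on the lower side, with a call for CDKN1A alone by limma. edgeR also called CDKN1C (adjusted p = 0.0423), and DESeq2 also called CDKN1C (adjusted p = 0.0123) and MYC (adjusted p = 0.023).
Basal marker sums were 383k to 766k with vehicle and 328k to 762k with TGFBRi, luminal marker sums 89.2k to 241k against 71k to 114k, and fibroblast marker sums 28k to 82.8k against 10.6k to 119k. Their part in the CDKN1A result was not tested. Of 27 further G1/S genes 4 were higher there: MAX, the partner of MYC, by 1.74, MDM2, which degrades p53, by 1.14, CCNH by 0.98 and E2F4 by 0.83. Of the p53 targets MDM2 was called, and of the TGFβ targets LTBP2 was lower by 2.67. The effect on MAX was lower in parous than in virgin rats by 2.33.

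In adult luminal cells and CD45+ cells no member was called by limma, edgeR or DESeq2, beside 0% of all genes in virgin and 0.0281% in parous luminal cells, and 0.022% in virgin and 0% in parous CD45+ cells. At unadjusted p under 0.05, 976 genes passed in virgin and 1858 in parous luminal cells. In CD45+ cells 749 passed in virgin and 141 in parous rats. CDKN1B in virgin luminal cells did not overlap, at 122, 193, 211 and 212 with vehicle and 252, 313, 341 and 366 with TGFBRi (0.80, SE 0.26, adjusted p = 0.659).
Parity itself was compared in vehicle rats. No member differed between parous and virgin rats by limma in any fraction, and none of the 30 member tests had an unadjusted p under 0.05 or was called by edgeR or DESeq2. The share of all genes called was 0% in basal, 0% in luminal and 0% in CD45+ cells, with 408, 1361 and 209 genes at an unadjusted p under 0.05. The differences of effect between parous and virgin rats, 0% of all genes in luminal and 0% in CD45+ cells, included no member. CDKN1B in basal cells lay at 419, 491, 603 and 781 in virgin and 605, 706, 794 and 910 in parous vehicle rats.

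After NMU, no member was called by limma in 80 tests over 8 comparisons, of which 8 had an unadjusted p under 0.05. edgeR called 0 and DESeq2 called 2, CCND1 in basal cells of tumor-bearing (adjusted p = 0.0318) and CDKN1B in luminal cells of tumor-free TGFBRi rats (adjusted p = 0.01). Tumor-free and tumor-bearing TGFBRi rats were each set against the same 3 tumor-bearing vehicle rats. The share of all genes called was 0% in basal cells of tumor-free and 1.31% of tumor-bearing TGFBRi rats, 0.948% and 0.212% in luminal cells, 0% and 0.015% in CD45+ cells, 0% in EPCAM+ tumor cells and 0% in CD45+ tumor cells. At unadjusted p under 0.05, 163 of 13312 genes passed in basal and 2688 of 14128 in luminal cells of tumor-free rats. In their CD45+ cells 404 of 13297 did. In tumor-bearing rats 2605, 2287 and 1011 passed in the same order of fractions. In tumors 278 of 12951 passed in EPCAM+ and 841 of 12641 in CD45+ cells.
CDKN1B in luminal cells had 128, 452 and 498 in vehicle rats, 71.1, 93.2 and 110 in tumor-free TGFBRi rats (-1.76, SE 0.57, adjusted p = 0.12) and 129, 132 and 177 in tumor-bearing TGFBRi rats. CCND1 in CD45+ cells had 190, 253 and 559 with vehicle and 630, 873 and 1461 in tumor-bearing TGFBRi rats (1.63, SE 0.47, adjusted p = 0.346), and 250, 260 and 392 in tumor-free rats. CDKN1A had 1768, 1818 and 2017 in CD45+ cells of vehicle rats, 2915, 3342 and 4149 in tumor-bearing and 2122, 2481 and 3497 in tumor-free TGFBRi rats. The treated rats lay above the vehicle rats in both groups, without a call. The part of the mix of leukocyte types in the CD45+ values, of glands and of tumors, was not tested.
In CD45+ cells of tumors, CDKN2C had 90.7, 211 and 344 with vehicle and 588, 599 and 602 with TGFBRi (1.66, SE 0.60, adjusted p = 0.664), and CCND1 had 525, 636 and 1096 against 254, 270 and 366 (-1.29, SE 0.52, adjusted p = 0.718). EPCAM+ tumor cells held CDKN2A at 66.7, 132 and 217 with vehicle and 53.8, 140 and 327 with TGFBRi, and CDKN2B at 367 to 869 and 633 to 913. NMU luminal cells held CDKN2A at 0 to 13.4 and CDKN2B at 9.02 to 112 over all groups. Tumors and glands were scaled separately, so these levels stand side by side without a test.

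In the E2 experiment, members were called only where rats with and without E2 were compared, and not between TGFBRi and vehicle. The 6 comparisons of TGFBRi with vehicle held 60 member tests, 5 of them with an unadjusted p under 0.05, with 0 calls by limma, edgeR and DESeq2. All genes were called in luminal cells at 0.0147% where no E2 was given, and with E2 at 0.0147% (tumor-free) and 0.00736% (tumor-bearing rats), and in CD45+ cells at 0%, 0% and 0.0223% in the same order. At unadjusted p under 0.05, 432, 828 and 863 of 13590 genes passed in luminal cells in that order. In CD45+ cells 330, 845 and 1126 of 13483 did.

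CDKN1A rose with E2 in CD45+ cells of tumor-free TGFBRi rats, from 229, 231 and 256 without E2 to 494, 667, 856 and 876 with E2 (log2 difference 1.56, SE 0.43, adjusted p = 0.0428), beside 5.58% of all genes. The groups did not overlap, the difference ran from 1.458 to 1.733 over the alternatives, and the call was lost in 6 of 13 of them, each time without 1 of the rats (1.46 to 1.61). In vehicle rats it had 191, 228, 340 and 343 without E2 and 360, 371, 803 and 845 with E2 (1.04, SE 0.40, adjusted p = 0.299), beside 0.282% of all genes. Tumor-bearing TGFBRi rats with E2 had 405 and 1915.
T or NK cell markers in these CD45+ samples of TGFBRi rats summed to 37.2k to 62k with E2 and 18.3k to 30.7k without, B cell markers to 0.0364k to 18.8k against 20.8k to 24.1k, macrophage markers to 3.18k to 20.5k against 2.76k to 3.52k and neutrophil markers to 0.991k to 5.49k against 0.371k to 0.663k. Their part in the CDKN1A result was not tested. In the same comparison E2F6 was higher by 0.91 of the further G1/S genes, PMEPA1 by 1.88 and LDLRAD4 by 1.32 of the TGFβ targets and CCNG1 by 0.54 of the p53 targets.

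CDKN2A was higher with E2 in luminal cells of tumor-free TGFBRi rats, at 6.96, 15.8, 20.6 and 68.7 normalized counts against 0, 0 and 0.457 without E2 (4.22, SE 1.14, adjusted p = 0.0425), beside 4.58% of all genes. This rests on 170 reads against 1 read, a ratio of 98.2 with an exact 95% interval of 17.4 to 3903 that covers counting error only. Of the 170 reads, 74 came from the 4 libraries of 1 rat and 74 from the single library of another, and the call was lost in 11 of 13 alternatives. In vehicle rats CDKN2A had 0, 0, 0 and 3.46 without E2 and 0, 16.8, 18.7 and 20.5 with E2 (2.68, SE 1.05, adjusted p = 0.236), beside 1.48% of all genes.
CCND2 in luminal cells had 170, 227 and 349 without E2 and 562, 809, 974 and 1092 with E2 in TGFBRi rats (1.81, SE 0.79, adjusted p = 0.218), and 37.2, 47.4, 54.2 and 210 against 154, 183, 207 and 465 in vehicle rats (1.75, SE 0.73, adjusted p = 0.268). Basal marker sums in the same TGFBRi samples were 4.71k to 26.5k with E2 and 3.33k to 5.57k without, fibroblast marker sums 0.998k to 12k (median 3.83k) against 8.13k to 32.1k (median 29.4k), and luminal marker sums 328k to 444k against 423k to 826k. In the vehicle rats, basal marker sums were 7.46k to 11.2k with E2 and 3.19k to 6.59k without, fibroblast marker sums 1.89k to 30.6k against 3.82k to 7.45k, and luminal marker sums 333k to 383k against 450.4k to 667k, so that basal and luminal marker sums did not overlap. Luminal progenitor marker sums in TGFBRi rats were 2.498e+06 to 5.357e+06 with E2 and 2.844e+05 to 4.007e+05 without. Mature luminal marker sums there were 5259 to 10420 against 31320 to 35250. In vehicle rats luminal progenitor sums were 3.633e+06 to 4.239e+06 against 2.636e+05 to 2.471e+06, and mature luminal sums 2473 to 5670 against 8074 to 53590. Neither list overlapped in either arm. The part of these cells and shifts in the luminal values with and without E2 was not tested. CDKN2C had 118, 191 and 370 without and 12.4, 57, 81.6 and 112 with E2 in TGFBRi rats (-1.98, SE 0.73, adjusted p = 0.135). CDKN2B in vehicle rats had 13.6, 21.9, 29.3 and 52.7 without and 59.6, 89, 111 and 156 with E2 (1.87, SE 0.68, adjusted p = 0.192). The groups did not overlap for CDKN2B in vehicle rats, nor for CDKN2C and CCND2 in TGFBRi rats. They overlapped for CDKN2B in TGFBRi rats, at 42.1, 94.3 and 108.3 without and 89.4, 90.5, 105.8 and 187 with E2 (0.57, adjusted p = 0.727), and for CDKN2C in vehicle rats, at medians of 175 without and 135 with E2 (-0.30, adjusted p = 0.891). Of the lists, MYCL was lower with E2 in vehicle rats by 6.60, and in TGFBRi rats MCM6 was higher by 2.60 while ID1, GADD45A and BBC3 were lower by 3.12, 1.70 and 1.40.

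In the single-cell sorts, some cells stood apart with the arm or with 1 rat. A cluster of ACI basal sorts led by HMOX1, SESN2 and GADD45A, genes of the stress response, held 39.8%, 39.2% and 51.8% of the cells of the TGFBRi rats and 1.16%, 3.51% and 0.16% of those of the vehicle rats. A cluster of SD basal sorts, led by HMOX1 and PDPN, held 91.5% of the cells of the TGFBRi rat SD14 and at most 1.38% of any other rat, and 57.2% of the luminal cells of SD14 lay in a cluster led by CXCL2 and RCAN1. These 3 clusters were picked out after their values were seen. Values outside the ACI cluster, and without SD14, are given beside the results.

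In single cells of the sorts, UMIs were summed per rat and tested by edgeR at an adjusted p of 0.1 or less. CDKN2C rose and RB1 fell in all 4 combinations of strain and sort, which the bulk libraries of the same strains and day did not show. Members were called 4 times of 8 tested in ACI basal sorts (32.9% of all genes called), 6 times of 8 in ACI luminal sorts (25.3%), 2 times of 10 in SD basal sorts (24.7%) and 2 times of 10 in SD luminal sorts (31.9%). DESeq2 called 6 members in ACI basal sorts and as many as edgeR in each of the other sorts. Its counts stand without a share of all genes called by DESeq2. The share of members called was not tested against that of all genes.

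CDKN2C, which encodes p18, had 5.28, 5.62 and 5.71 CPM with vehicle and 9.65, 10.7 and 11.8 with TGFBRi in ACI basal sorts (log2 change 1.19, adjusted p = 0.000682, 224 against 389 UMIs). The arms did not overlap. In ACI luminal sorts it had 5.85 to 7.35 and 6.6 to 10.4, with overlap (0.60, adjusted p = 0.0532). In SD basal sorts it had 8.38, 9.82 and 10.7 with vehicle and 11.4, 13.7, 18.5, 20.3, 20.8 and 22.7 with TGFBRi (1.28, adjusted p = 0.0194), without overlap. In SD luminal sorts it had 4.95, 5.23 and 5.48 with vehicle and 4.77, 9.89, 10.53, 11.8, 16.4 and 16.7 with TGFBRi (1.49, adjusted p = 0.0239), and the lowest TGFBRi rat, SD14, lay below the vehicle rats.
RB1 had 45, 45.9 and 54.6 with vehicle and 29.1, 30.6 and 31.5 with TGFBRi in ACI basal sorts (-0.44, adjusted p = 0.0144), and 91.5, 122 and 161 against 63.9, 71.2 and 75.1 in ACI luminal sorts (-0.55, adjusted p = 0.0737). In SD basal sorts it had 29.9, 30.1 and 48.4 with vehicle and 5.35, 7.52, 7.53, 7.94, 19.9 and 20.1 with TGFBRi (-1.32, adjusted p = 0.0451), and in SD luminal sorts 140, 148 and 160 against 12.3, 17.2, 18.8, 22.4, 81.4 and 82 (-1.63, adjusted p = 0.0525). No arms overlapped for RB1. The 2 highest TGFBRi values in both SD sorts came from the same rats, SD9 and SD10.
The log2 changes are relative to TMM scaling and so can differ from the ratio of plain CPM. In SD basal sorts the CDKN2C call was lost without the vehicle rat SD1 or SD3 (log2 change 1.303 and 1.207) and the RB1 call likewise (-1.44 and -1.03). In SD luminal sorts the CDKN2C call was lost without SD1 (1.55) and the RB1 call without SD1, SD2 or SD3 (-1.65, -1.66 and -1.57). In ACI luminal sorts the CDKN2C call was lost without ACI7, ACI9, ACI12 or ACI16 (0.68, 0.53, 0.43 and 0.58), and the RB1 call without any of these or ACI15 (-0.32 to -0.62). In bulk at day 0 neither gene was called, and all arms overlapped. RB1 had 343 to 432 with vehicle and 423 to 629 with TGFBRi in SD basal cells (log2 difference 0.34, adjusted p = 0.98) and 159 to 583 against 487 to 770 in SD luminal cells (0.78, adjusted p = 1.00), the opposite sign to the sorts of single cells. The luminal value of 159 belongs to rat C6N, whose luminal library stood apart in basal markers. The other SD vehicle rats had 279, 496 and 583. In ACI rats the RB1 differences were 0.26 in basal and -0.03 in luminal cells. CDKN2C had 207 to 336 against 229 to 294 in ACI basal (0.0042) and 165 to 174 against 78.1 to 166 in ACI luminal cells (-0.44), and -0.15 and -0.40 in SD basal and luminal cells. Whether bulk and single-cell effects differ was not tested. Among the single-cell alternatives no direction changed, and the ACI basal calls were kept in all 9 alternatives. Without SD14 the CDKN2C changes were 1.36 in basal and 1.60 in luminal sorts, and the RB1 changes -1.26 and -1.59, all still called. Outside the HMOX1 cluster, ACI basal sorts had CDKN2C at 5.31, 5.76 and 5.72 with vehicle and 12.4, 10.7 and 10 with TGFBRi, and RB1 at 44.9, 45.9 and 54.7 against 28.2, 28.3 and 26.9, again without overlap.

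CDKN1A rose in both ACI sorts. It had 104.3, 176 and 190 CPM with vehicle and 221, 227 and 263 with TGFBRi in basal sorts (0.82, adjusted p = 0.0107), and 88.3, 93 and 110 against 144, 160 and 168 in luminal sorts (0.98, adjusted p = 0.00617), without overlap. Outside the HMOX1 cluster the basal sorts had 104.4, 176 and 189 with vehicle and 214, 219 and 260 with TGFBRi, so the arms did not overlap there either. In bulk at day 0 the ACI differences of CDKN1A were -0.18 in basal and -0.33 in luminal cells, with overlap and without a call. In SD rats the arms overlapped, at 155 to 210 against 106.6 to 364 in basal and 161 to 244 against 105.5 to 238 in luminal sorts, and no call was made. The 364 was rat SD14, and without it the basal change was 0.17. CDKN1C rose in ACI basal sorts from 82.1, 97.4 and 104.8 to 113, 116 and 122 (0.53, adjusted p = 0.00524) and in ACI luminal sorts from 5.93 to 10.6 to 9.67 to 12.1 (0.68, adjusted p = 0.0618).
CCND1 rose in ACI luminal sorts, at 401, 522 and 566 with vehicle and 531, 603 and 655 with TGFBRi (0.54, adjusted p = 0.029), with overlap. MYC fell there, from 128, 144 and 172 to 83.7, 86.3 and 97.9 (-0.45, adjusted p = 0.0475), and was not called in basal sorts. In bulk luminal cells of ACI rats at day 0 MYC lay the other way, without a call. The bulk values were 7842 to 8362 with vehicle and 8605 to 11974 with TGFBRi, without overlap. The MYC call was lost without ACI7, ACI9 or ACI12 (-0.49, -0.32 and -0.39), and that of CDKN1C in luminal sorts without ACI7, ACI9, ACI12 or ACI16 (0.48 to 0.71). CDKN1B had 93.5 to 110 with vehicle and 70.2 to 90.2 with TGFBRi in ACI luminal sorts and 114 to 131 against 55.8 to 108.02 in SD basal sorts, not overlapping but not called. CDKN2A and CDKN2B had few UMIs in the sorts: CDKN2B had 1 and 4 UMIs in ACI basal sorts of TGFBRi and vehicle rats and 111 and 44 in SD luminal sorts, and CDKN2A at most 33 UMIs in any arm. These sums are over unequal numbers of rats and UMIs per arm and give no direction. Scaled for depth and without SD14, the CDKN2B log2 change in SD luminal sorts was -0.467, not called.

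**Figure D3:**
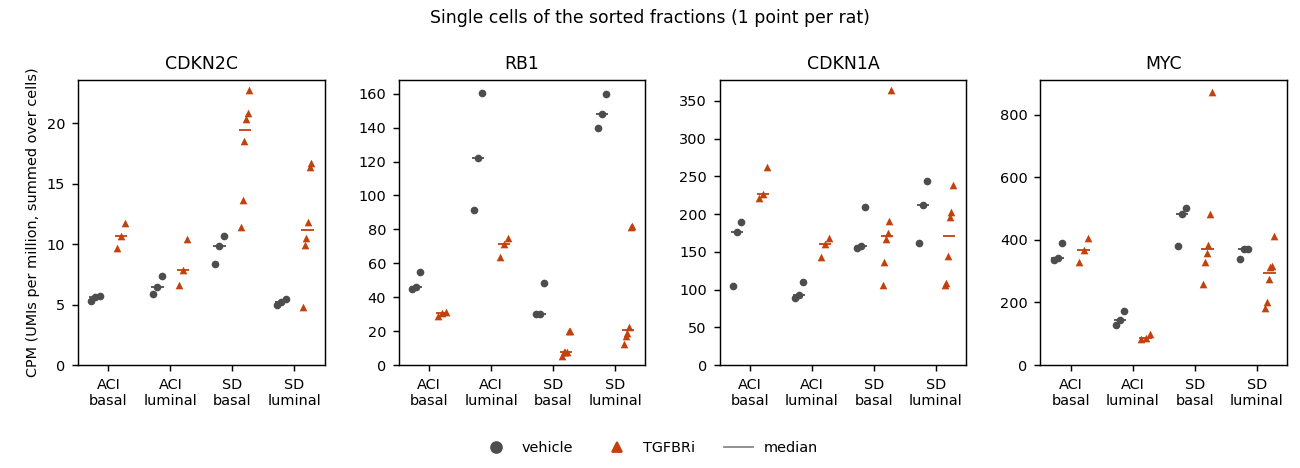
CPM, summed over the cells of a rat, for CDKN2C, RB1, CDKN1A and MYC in basal and luminal sorts (grey circles vehicle, orange triangles TGFBRi, line at the median; ACI 3 rats per arm, SD 3 vehicle and 6 TGFBRi). RB1 lies lower in every TGFBRi rat than in every vehicle rat of the same sort, and CDKN2C lies higher without overlap in both basal sorts and with overlap in both luminal sorts.

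Within cell classes of the ACI luminal sorts, values without a test had the directions of the whole sort. Classes were clusters of cells named from fixed markers, made without the members. Luminal progenitor-like cells had MYC at 195 to 217 with vehicle and 126 to 133 with TGFBRi, RB1 at 161 to 208 against 100.7 to 103.6 and CDKN1A at 108.2 to 158 against 191 to 228. Mature luminal-like cells had MYC at 80.1 to 89.1 against 39.8 to 55.5 and RB1 at 53.7 to 60.4 against 33.4 to 39.1. In SD rats, RB1 had 181 to 224 against 15.8 to 111 in luminal progenitor-like and 37.2 to 73.1 against 5.06 to 39.5 in mature luminal-like cells, where the arms overlap.
The arms sat in different clusters: of the basal-like clusters of ACI rats, 1 held 97.7% cells of TGFBRi rats and the others 4.31% and 3.74%, and of those of SD rats the shares were 80.5%, 6.57%, 92.8% and 99.2%.
Of 30 further G1/S genes 11 were higher and 2 lower in ACI basal sorts, and 8 of 29 higher and 1 lower in ACI luminal sorts. Of 10 p53 targets 6 were higher and 0 lower in ACI basal sorts, among them SESN2 by 1.91, GADD45A by 1.12 and MDM2 by 0.85, with a list median of 0.5202 beside -0.03045 over all genes. SESN2 and GADD45A were among the leading genes of the HMOX1 cluster. Outside it, SESN2 had 42.8, 84.6 and 97.3 CPM with vehicle and 175, 215 and 223 with TGFBRi, GADD45A 673, 685 and 880 against 979, 1308 and 1422, and MDM2 308, 425 and 443 against 540, 639 and 648, each without overlap. PHLDA3, called lower in bulk ACI basal cells of day 0, had 206, 337 and 388 against 412, 486 and 508 outside the cluster in these sorts, also without overlap. Of the TGFβ targets 2 were higher and 3 lower, with CCN2 lower by 2.47. In SD sorts, cycling markers were higher, 5 of 12 in basal and 10 of 12 in luminal sorts with 0 lower (list medians 1.552 and 2.435), and TGFβ targets were lower, 4 and 5 with 0 higher.

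Whole glands gave the levels of each member over 11 cell classes. In the 3 vehicle rats, CDKN1A was highest in luminal progenitor-like cells (692 ± 161 CPM, SD, n = 3), followed by lymphatic endothelium-like (626 ± 154), blood vessel endothelium-like (612 ± 35.5), macrophage-like (561 ± 169) and basal-like cells (536 ± 32), neighbours that do not differ beyond their spread. It was lowest in T or NK cell-like (46.8 ± 17) and B cell-like cells (40.6 ± 25). CDKN1B had lymphocytes at the top, with 109 ± 24.5 in T or NK cell-like and 83.7 ± 38.7 in B cell-like cells, and 24.3 ± 4.95 in luminal progenitor-like and 18.6 ± 1.31 in fibroblast-like cells at the bottom. CDKN1C led in fibroblast-like cells at 139 ± 46.2 and was lowest in luminal progenitor-like cells at 5.09 ± 2.57.
CCND1 was highest in mature luminal-like cells (286 ± 62), the class of hormone receptor expression, then lymphatic endothelium-like cells (145 ± 46.2), and lowest in T or NK cell-like cells (2.99 ± 0.532). CCND2 had B cell-like cells at the top (304 ± 55), then smooth muscle or pericyte-like (133 ± 44.3) and T or NK cell-like cells (94.6 ± 12.8), with mature luminal-like (3.82 ± 3.74) and luminal progenitor-like cells (3.35 ± 2.1) at the bottom. The 2 D cyclins thus led in different classes.
MYC was highest in basal-like and Schwann cell-like cells (758 ± 96.9 in the latter) and lowest in macrophage-like cells (72.4 ± 16.5). RB1 ran from 18.5 ± 4.89 in luminal progenitor-like to 3.84 ± 1.76 in fibroblast-like cells. The INK4 genes were scarce: CDKN2C led in Schwann cell-like cells at 15.6 ± 3.87, CDKN2B in lymphatic endothelium-like cells at 6.81 ± 4.69, then fibroblast-like cells at 3.5 ± 1.37, with 0.484 in B cell-like cells, and the mean of CDKN2A did not pass 2.41 in any class.

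**Figure D4:**
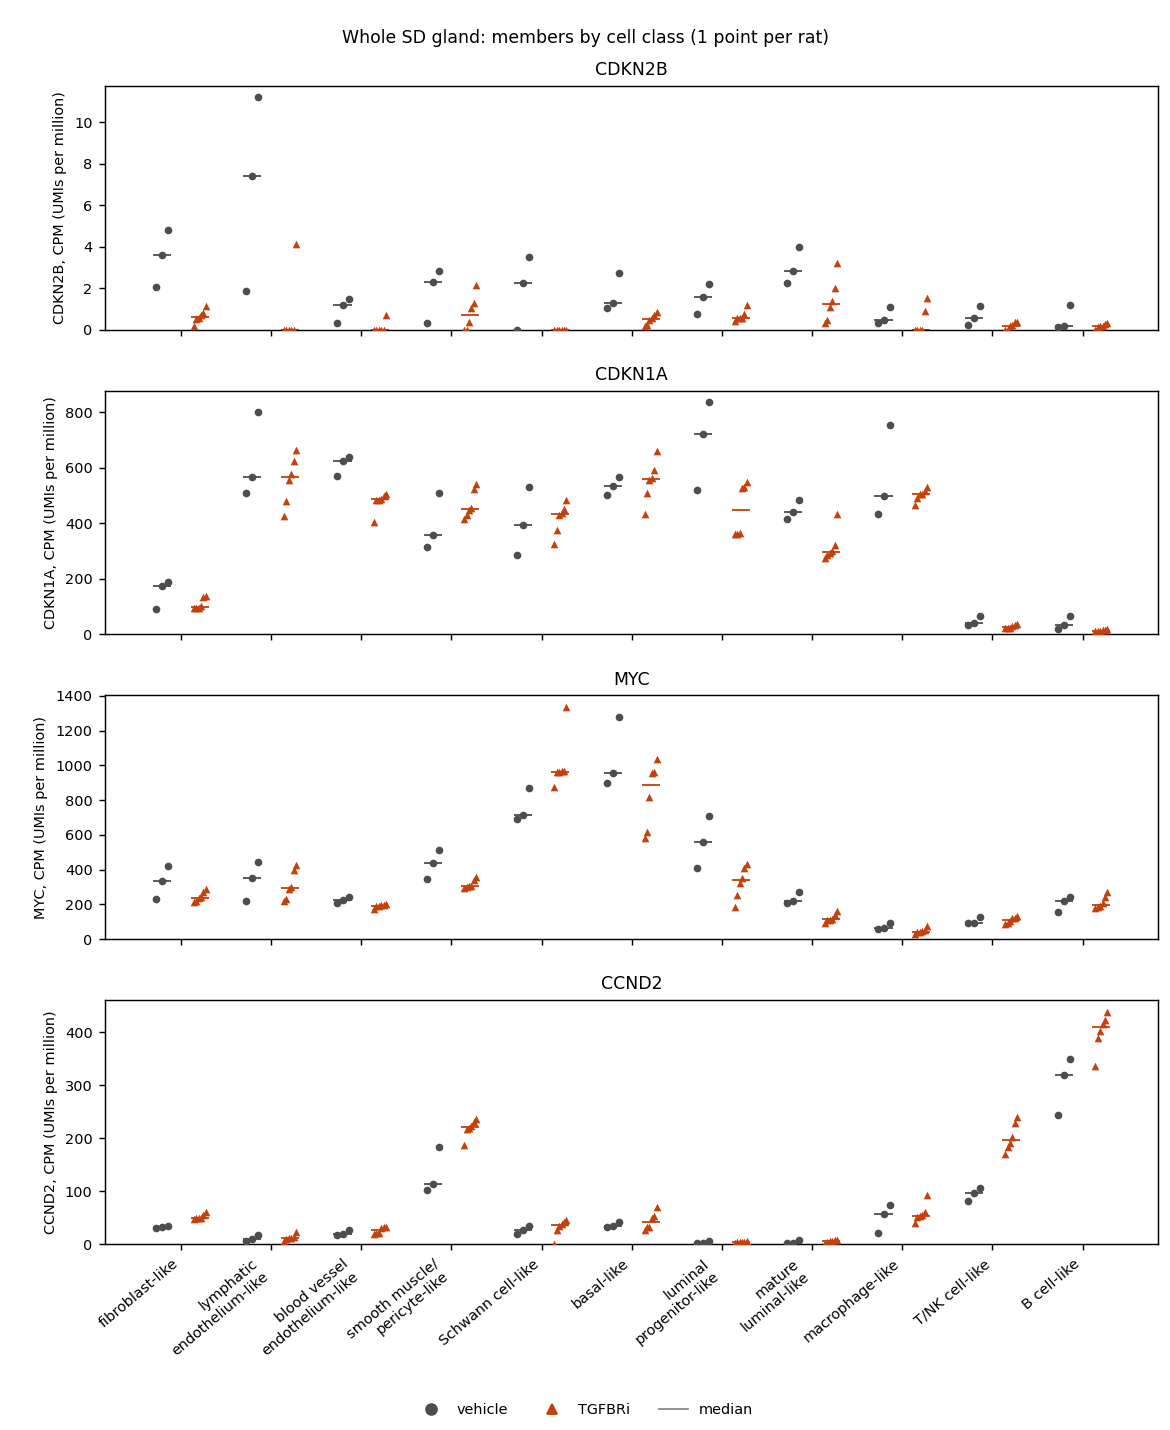
CPM of CDKN2B, CDKN1A, MYC and CCND2 in 11 cell classes of whole SD glands, 1 point per rat (grey circles vehicle, n = 3; orange triangles TGFBRi, n = 6; line at the median; axes start at 0). CDKN2B lies lower with TGFBRi in fibroblast-like cells and CCND2 lies higher in T or NK cell-like cells, without overlap.

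With TGFBRi, CDKN2B fell in 5 of the classes, all of stromal, vessel or epithelial kind. In fibroblast-like cells it had 2.07, 3.61 and 4.82 CPM with vehicle (123 UMIs) and 0.163 to 1.15 with TGFBRi (31 UMIs), without overlap (log2 change -2.61, adjusted p = 0.000834). In basal-like cells it had 1.04, 1.3 and 2.71 against 0.195 to 0.834 (47 and 21 UMIs, -1.54, adjusted p = 0.0216). In blood vessel endothelium-like cells 16 UMIs stood against 2 (-3.11, adjusted p = 0.0316), a ratio of vehicle to TGFBRi of 9.62 with an exact 95% counting interval of 2.26 to 86.3, and in lymphatic endothelium-like cells 18 against 1 (-3.62, adjusted p = 0.0265), a ratio of 18.4 with an interval of 2.91 to 767. In luminal progenitor-like cells it had 0.741 to 2.21 against 0.423 to 1.18 (-1.25, adjusted p = 0.0707), with overlap, and this call was lost in 9 of 12 alternatives. Without the vehicle rat veh1 the call in blood vessel endothelium-like cells was lost too (-2.67), while those in fibroblast-like and basal-like cells were kept in all 12 alternatives. Over the alternatives the change ran from -5.197 to -2.673 in blood vessel endothelium-like and from -5.168 to -3.218 in lymphatic endothelium-like cells. Mature luminal-like cells had 45 against 29 UMIs (-1.27, adjusted p = 0.113), not called. Over all cells of a gland, CDKN2B had 1.67 to 1.82 with vehicle and 0.564 to 0.858 with TGFBRi. The SD sorts, tested by edgeR without SD14, had log2 changes of 1.56 in basal (adjusted p = 0.207) and -0.467 in luminal sorts (adjusted p = 0.365). Neither was called. In bulk basal cells of day 0 the arms overlapped, at 10.1 to 44.4 with vehicle and 4.34 to 44.7 with TGFBRi in SD rats. In ACI rats they had 8.57 to 40.4 and 12.2 to 198. Whether these effects differ was not tested.

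CDKN1A fell in 5 classes. In blood vessel endothelium-like cells it had 572, 625 and 639 with vehicle and 404 to 506 with TGFBRi (-0.56, adjusted p = 0.00259), without overlap. In B cell-like cells it had 19, 34.8 and 68 against 11.9 to 18.8 (-1.44, adjusted p = 0.019), in mature luminal-like cells 416 to 482 against 276 to 433 (-0.55, adjusted p = 0.0231), in luminal progenitor-like cells 518 to 836 against 361 to 550 (-0.76, adjusted p = 0.0354) and in fibroblast-like cells 92.2 to 189 against 94.8 to 140 (-0.68, adjusted p = 0.0639). The B cell-like change ran from -1.859 to -0.8635 over 12 alternatives, and its call was kept in all of them. In the B cell-like cells, the summed markers of luminal cells, which B cells should lack, had 62.7, 85.6 and 169 CPM there with vehicle and 44.9 to 82.2 with TGFBRi, and those of fibroblasts 85, 292 and 1241 against 117 to 327. In fibroblast-like cells the luminal markers had 178, 315 and 862 CPM with vehicle and 80.6 to 315 with TGFBRi. The part of RNA from other cells in the calls of both classes was not tested. In luminal progenitor-like cells the summed luminal markers had 10008 to 13571 CPM with vehicle and 6385 to 8952 with TGFBRi, without overlap. The part of this shift in the calls of that class was not tested. The ACI sorts above had the opposite sign for CDKN1A, in another strain, cell preparation and kit, and the difference was not tested.
MYC fell in 6 classes: mature luminal-like from 206, 218 and 272 to 93.5 to 162 (-0.99, adjusted p = 0.00159), smooth muscle or pericyte-like from 345 to 513 to 292 to 358 (-0.61, adjusted p = 0.00364), blood vessel endothelium-like from 209 to 243 to 174 to 206 (-0.43, adjusted p = 0.00943), fibroblast-like (-0.59, adjusted p = 0.0199), luminal progenitor-like (-0.91, adjusted p = 0.0331) and macrophage-like cells (-0.79, adjusted p = 0.0694). It was not called in basal-like cells. The luminal progenitor-like calls of MYC and CDKN1A were lost without the vehicle rat veh1 (log2 change -0.81 and -0.62) or veh4 (-0.69 and -0.59), the fibroblast-like call of CDKN1A in 6 of 12 alternatives (nearest to 0 at -0.39 without veh4) and the macrophage-like call of MYC in 7 of 12.

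CDKN1C rose in fibroblast-like cells, with 87.9, 153 and 177 in vehicle and 219, 226, 229, 275, 380 and 731 in TGFBRi rats (1.11, adjusted p = 0.0455), and in basal-like cells, with 15.8, 23.7 and 55.4 against 46.7 to 89.4 (1.03, adjusted p = 0.034). It fell in B cell-like cells, with 12.8 to 23.1 against 6.04 to 10.6 (-0.96, adjusted p = 0.0264), beside the same marker sums of other cells. CDKN1B rose in blood vessel endothelium-like cells, with 27.5 to 45.1 against 49.6 to 65.2 (0.49, adjusted p = 0.0493), and in fibroblast-like cells, with 17.2 to 19.8 against 25 to 37.8 (0.42, adjusted p = 0.0887). CDKN2C rose in blood vessel endothelium-like cells, with 0.929 to 2.17 against 2.08 to 5.52 (1.03, adjusted p = 0.0658). Without veh1 the CDKN1C call in basal-like cells (0.70), that in fibroblast-like cells (1.14), the CDKN1B calls (0.36 in endothelium-like and 0.32 in fibroblast-like cells) and the CDKN2C call (0.77) were lost. The CDKN2C call was also lost without ly2 (0.94) or ly4 (0.94), and the fibroblast-like CDKN1B call in 7 of 12 alternatives. Without veh2 the CDKN1C call in basal-like cells (0.86) and both CDKN1B calls (0.39 and 0.37) were lost, and without veh4 the CDKN1C call in fibroblast-like cells (0.91).
CCND2 rose in T or NK cell-like cells, with 81.3, 95.9 and 106.8 in vehicle and 171 to 240 in TGFBRi rats, without overlap (1.12, adjusted p = 0.000936). Smaller rises were called in fibroblast-like (0.48, adjusted p = 0.0277), B cell-like (0.33, adjusted p = 0.058) and smooth muscle or pericyte-like cells (0.52, adjusted p = 0.0641). CCND1 rose in lymphatic endothelium-like cells, with 110, 127 and 197 against 215 to 513 (1.37, adjusted p = 0.00459). RB1 rose in luminal progenitor-like cells, with 15.4 to 24.1 against 26 to 70.8 (1.16, adjusted p = 0.0406), in mature luminal-like (0.78, adjusted p = 0.0912) and in blood vessel endothelium-like cells (0.54, adjusted p = 0.0962), while the luminal sorts of the same strain, made with another preparation and kit, had it lower. Whether these effects differ was not tested. The RB1 call in luminal progenitor-like cells was lost without veh2 (1.03) or veh4 (1.10). Those in mature luminal-like and blood vessel endothelium-like cells were lost in 7 and 6 of 12 alternatives, with the lowest values without ly2 (0.58) and veh2 (0.38). The CCND2 call in fibroblast-like cells was lost without veh1 (0.39) or veh2 (0.43), that in B cell-like cells without veh2, ly4, ly11 or ly14 (0.30 to 0.32) and that in smooth muscle or pericyte-like cells in 6 of 12, lowest without veh1 (0.34). The calls in T or NK cell-like and lymphatic endothelium-like cells were kept in all 12 alternatives.

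**Figure D5:**
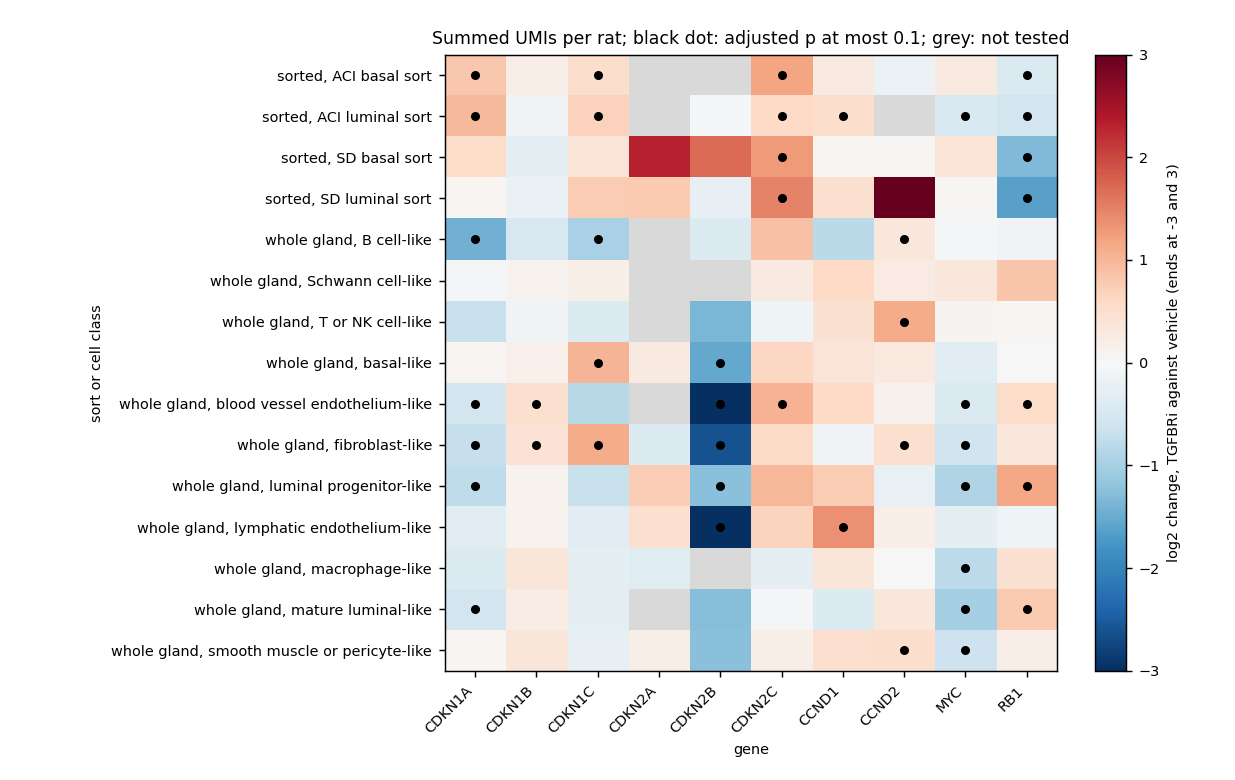
Log2 change of each member, TGFBRi against vehicle, in UMIs summed per rat for 4 sorts and 11 whole-gland classes (red higher, blue lower, colours end at -3 and 3). A black dot marks an adjusted p of 0.1 or less and grey a member not tested. CDKN2B and MYC are blue and dotted in several whole-gland classes, CDKN2C is red and dotted in the 4 sorts, and RB1 is blue in the sorts and red in 3 dotted classes of whole glands.

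Read against the genes at large, members were called 3 times of 9 tested in B cell-like cells (17.4% of all genes), 0 of 8 in Schwann cell-like (10.7%), 1 of 9 in T or NK cell-like (8.02%), 2 of 10 in basal-like (44.2%), 6 of 9 in blood vessel endothelium-like (32.1%), 6 of 10 in fibroblast-like (29.5%), 4 of 10 in luminal progenitor-like (26.9%), 2 of 10 in lymphatic endothelium-like (15.3%), 1 of 9 in macrophage-like (7.71%), 3 of 9 in mature luminal-like (27.6%) and 2 of 10 in smooth muscle or pericyte-like cells (27.5%). In Schwann cell-like cells 2 members and 2246 of 10759 genes had an unadjusted p under 0.05, and DESeq2 called 0 members. Clusters of the basal-like class were unequally filled, with 16.2%, 91.2% and 35.3% cells of TGFBRi rats.
Of the p53 targets, 7 of 11 were lower in luminal progenitor-like cells with a list median of -1.315 and 7 of 11 in fibroblast-like cells with a median of -0.8616, against 0 and 1 higher. In basal-like cells 3 were higher and 5 lower. TGFβ targets were called lower in 3 and higher in 0 in luminal progenitor-like, mature luminal-like and Schwann cell-like cells, and 4 higher and 2 lower in basal-like cells. Of the further G1/S genes, 3 were higher and 10 lower in smooth muscle or pericyte-like cells, 6 and 7 in basal-like and 4 and 7 in blood vessel endothelium-like cells.

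Genes with the most similar pattern were sought over the 36 samples of both epithelial lineages of young ACI rats among 9897 genes with a mean of at least 50, by Pearson's r of log2 values. CCND2 followed SRPX and RCN3 (both 0.97) and CDKN1C followed CIART (0.96) and SULT1D1 (0.95). MYC followed MAT2A (0.93) and SOCS3 (0.92), CDKN1B followed DDIT3 (0.91) and UBE2S (0.90), CDKN2C followed HNRNPA1 (0.92) and HAUS7 (0.88), RB1 followed LOC100294508 and ZSWIM4 (both 0.93), CDKN1A followed DPH3 and MED21 (both 0.88) and CCND1 followed CKS2 (0.79) and RALY (0.78). These samples share lineage, day and sorting, so the values are a description. CDKN2A and CDKN2B lay below the mean of 50.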

How the data were processed

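Bulk RNA-seq was made by the authors from sorted cells (SMARTer v4 libraries), with reads aligned by STAR 2.5.1b to rn6 and counted without strand by HTSeq on RefSeq genes. The deposited bulk values are a normalized signal: the authors divided each sample's counts by a size factor, and both epithelial sorts of young ACI rats, and those of young and NMU-treated SD rats, were scaled together, otherwise each fraction alone. Each of the 2526805 values above 0 was a whole read times 1 step per sample at a tolerance of 0.001 (100%), so reads were recovered. The deposited single-cell tables hold raw UMI counts, made by the authors with Cell Ranger 4.0.0 (sorts) or 7.0.0 (whole glands) and filtered by them on genes, mitochondrial reads and, in sorts, PTPRC and keratin reads. The authors also removed, as mislabeled, cells of a sort that lay in clusters made almost wholly of the other sort. In the tables no cell of the 30 sorts held a PTPRC UMI, and each held at least 2 keratin UMIs. The mitochondrial filter could not be checked, as no gene symbol began with MT-. The 4 parts of 1 rat were averaged, which left 196 bulk values per gene.

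Bulk groups were compared by limma 3.58.1 (trended prior, robust variances) on log2(value + 1), for genes with a summed value of 10 or more, calling an adjusted p (Benjamini-Hochberg) up to 0.05. Since a pseudocount of 1 was added, fold changes of low genes are understated. The count test is used for the bulk data only as an alternative, because the values are normalized. Single-cell UMIs were summed per rat and sort or class (at least 10 cells) and tested by edgeR 4.0.16 (quasi-likelihood, TMM) at 0.1 or less. Clusters (scanpy 1.11.5, Leiden 0.8) were made without the members and the further G1/S genes, and were named from markers with a log2 fold of at least 1 in at least 10% of cells, 3 or more markers. All 103524 whole-gland, 39766 SD and 16762 ACI cells were clustered, and those of unnamed clusters, 483 to 1503 per whole gland, entered no class. No doublet caller was run, and leaving out the top 5% of cells by UMIs was tried instead. Steps were tested on simulated data. Alternatives were DESeq2 1.42.0 and edgeR, TMM scaling, pseudocount 0.1, no filter, only the groups compared, leaving out each rat, and the rat as a block. Same-numbered basal and luminal samples come from 1 rat (correlation of deviations 0.03 to 0.86 in ACI and 0.09 to 0.27 in SD rats). Members were named in every comparison, listed genes where called, up to 5 per list by size of change. The members and lists were chosen with earlier results of these data known. The labels of 1 ACI rat disagree on its arm and those of another on its day (between title, description and characteristics), and the title and treatment field were followed for the arm and the characteristics for the day.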

Additional observations from a re-analysis of the deposited data

Results flagged for a closer look

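In 24 of 216 sets of values (1 member in 1 group of 4 to 6 rats, CDKN2A left out), 1 rat lay far from the others, where chance gives 10.8, about 1 in 20. Values are normalized counts, with the range of the other rats of the group.
CDKN1A was 1793 in 1 TGFBRi-treated parous adult rat (CD45+ cells, others 434.7 to 642) and 2649 in 1 vehicle rat without E2 (luminal cells, others 1148 to 1256). CDKN1B was lowest at 239.5 in luminal cells of 1 vehicle rat with E2 (others 321.4 to 333.9). CDKN1C was 402.9 in luminal cells of the SD vehicle rat C6N (others 64.65 to 92.97), 1471 in CD45+ cells of 1 SD vehicle rat (others 390.6 to 516.4), 1373 in basal cells of 1 adult virgin vehicle rat (others 931.1 to 978.4) and 548 in luminal cells of 1 vehicle rat with E2 (others 175.4 to 228.2).
CDKN2B was 59.83 in CD45+ cells of 1 SD TGFBRi rat (others 12.53 to 19.17), 126.8 in basal cells of 1 adult virgin TGFBRi rat, with the others listed at 0, 150.9 in luminal cells of 1 adult virgin TGFBRi rat (others 32.71 to 40.26) and 187.4 in luminal cells of 1 tumor-free TGFBRi rat with E2 (others 89.37 to 105.8). CDKN2C was 102.8 in luminal cells of 1 adult virgin TGFBRi rat (others 83.51 to 86.03).
CCND1 was 4246 in luminal cells of 1 SD TGFBRi rat (others 1609 to 1865), lowest at 339.2 in CD45+ cells of 1 adult virgin vehicle rat (others 884.7 to 959.8) and 7158 in luminal cells of 1 adult virgin vehicle rat (others 3759 to 4209). CCND2 was 117.6 in luminal cells of C6N (others 11.91 to 29.14), 73.96 in luminal cells of the SD TGFBRi rat D8N (others 1.034 to 7.187), lowest at 32.71 in luminal cells of 1 adult virgin TGFBRi rat (others 73.95 to 78.92) and 210.2 in luminal cells of 1 vehicle rat without E2 (others 37.23 to 54.23). MYC was lowest at 4657 in luminal cells of D8N (others 7387 to 7702). RB1 was 952.1 in CD45+ cells (others 552.3 to 616.9) and 4052 in luminal cells (others 1897 to 2134) of parous TGFBRi rats.
In single cells, the basal sort of the TGFBRi rat SD14 had 364.3 CPM of CDKN1A (others 106.6 to 190.6) and 872.8 of MYC (others 259.4 to 484.1).

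Single-cell effects that were called without overlap of the arms were compared within an experiment and between the SD sorts and the same lineage of whole SD glands, and not between strains. There, 3 pairs pointed in opposite directions. CDKN1C was higher in fibroblast-like and lower in B cell-like cells of whole glands, effects 2.075 apart on the log2 scale. RB1 was higher in luminal progenitor-like cells of whole glands and lower in the SD luminal sort, 2.785 apart, and likewise higher in mature luminal-like cells, 2.407 apart. These differences were not tested.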

How the results depend on the processing

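Of 66 counts of called members, 47 were 0. Counts under other settings are given without the share of all genes called under that setting. DESeq2 gave 1 in place of 0 in ACI basal cells at day 0 (MYC), in CD45+ cells at day 0 and in their difference between day 0 and 14 (CCND2), in the adult basal difference of parous and virgin rats (CDKN1A), in NMU basal cells of tumor-bearing (CCND1) and NMU luminal cells of tumor-free TGFBRi rats (CDKN1B). It gave 3 in place of 1 in adult virgin basal cells (with CDKN1C and MYC), and 2 in place of 1 in CD45+ cells of TGFBRi rats with against without E2 (with RB1) and in T or NK cell-like cells (with CDKN1A). In ACI basal sorts it gave 6 in place of 4, and in luminal progenitor-like cells 3 in place of 4. In blood vessel endothelium-like cells it gave 5 in place of 6, and in lymphatic endothelium-like cells 1 in place of 2. It gave no adjusted p for CDKN2B in either endothelium-like class. edgeR gave 2 in place of 1 in adult virgin basal cells (with CDKN1C) and, as did TMM scaling and a pseudocount of 0.1, 0 in place of 1 in luminal cells of TGFBRi rats with against without E2. Fitting only the groups compared gave 2 in place of 0 in ACI basal cells at day 0 (MYC and CCND2) and 0 in place of 1 in adult virgin basal cells. Leaving out the top 5% of cells by UMIs gave 1 in place of 2 in smooth muscle or pericyte-like cells.

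Leaving out 1 rat at a time gave counts of 0 to 1 in ACI basal cells at day 0, in the CD45+ difference of day 0 and 14, in NMU luminal cells of tumor-free and of tumor-bearing rats and in luminal cells of TGFBRi rats with against without E2, 0 to 2 in ACI CD45+ cells at day 0, in CD45+ cells of tumor-bearing rats with E2, of TGFBRi rats with against without E2, in both SD sorts and in Schwann cell-like and macrophage-like cells, 1 to 2 in adult virgin basal and in lymphatic endothelium-like cells, 1 to 3 in T or NK cell-like and basal-like cells, 2 to 6 in ACI luminal sorts and fibroblast-like cells, 2 to 7 in blood vessel endothelium-like, 0 to 5 in luminal progenitor-like and 1 to 6 in smooth muscle or pericyte-like cells. With the rat as a block, 7 members differed between the lineages in ACI rats, as without it, and 4 in SD rats in place of 3 (with CCND1). Adult rats share animal names across arms, but their deviations did not go together (correlations from -0.74 to 0.41), and a block of names called 1 member in virgin basal cells, as without it.

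Of the 57 called members, 44 of them in single cells, none changed direction (0 reversals). At the coarser clustering (Leiden 0.4), 6 of 220 mean levels moved by more than 1 SD. CDKN2A and CDKN2B often rested on few reads or UMIs, so that small differences of these 2 genes were not detectable at this depth.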
